A study of Drosophila melanogaster and Drosophila simulans with 21 samples.

Results

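BigH1 (CG3509, chromosome arm 3R) is the linker histone of the Drosophila germline and early embryo. It was represented by 1 of the 6101 probe positions on the arrays and is 1 of 1778 genes that a position names by a single symbol. The gene was chosen by its measured log2 ratios in hybrid females, because it was the named gene with the lowest level relative to both parental species. Its hybrid values are therefore given as a description, without a test. The 3 groups were adult females of D. melanogaster (Canton S), of D. simulans (Sim-1) and of their hybrid, with Canton S as the mother and Sim-1 as the father. Stocks were kept at 25 C and crosses of 7 to 8 flies of each sex at 18 C. Hybrids and virgin females of the pure species stayed 5 to 6 days at room temperature, and whole flies were frozen within a window of 2 h. Extractions of a strain were mixed into 1 RNA pool, so the arrays repeat the measurement of 3 pools, p-values measure the spread between arrays only, and strain and pool cannot be told apart.

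Linker histones bind the DNA that enters and leaves the nucleosome and favour compact chromatin. Most tissues of the fly use the somatic H1, encoded in the histone gene cluster. BigH1 takes its place in germ cells, is loaded into the egg by the mother, and is replaced by somatic H1 when the embryo starts to transcribe its own genome. In an adult female the ovary is thus the known site of its expression.

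There were 6 arrays for each pair of RNAs, with the channels exchanged on 3 of them, and 3 arrays on which 1 RNA filled both channels. The arrays held values for 4657 to 4946 positions, and BigH1 had a value on all 21. Ratios are given on the log2 scale after subtracting the median of each array, so higher and lower mean relative to the median position. The labels do not state which channel is the numerator. Signs below follow the reading of channel 1 over channel 2, adopted after the data were seen. In the other reading every sign turns, the hybrid would be the highest of the 3 for BigH1, and all sizes stay. The BigH1 values themselves do not bear on which reading is right.

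On the 6 arrays of hybrid against D. melanogaster RNA, BigH1 stood at log2 ratios of -5.33, -4.91, -4.74, -2.36, -4.68 and -4.62, in the order of replicates 1 to 6. Hybrid RNA gave the weaker signal on all 6, by 24.6-fold to 40.2-fold on 5 of them and by 5.14-fold on replicate 4. On the 6 arrays of hybrid against D. simulans RNA the log2 ratios were -5.07, -5.44, -4.39, -4.76, -3.73 and -3.86. Hybrid RNA was again the weaker on every array, by 13.3-fold to 43.4-fold. All 6 arrays lay below 0 for 36.7% of the genes with 6 values in the first pair and for 34.2% in the second, so the shared sign alone is common on these arrays. The means were -4.44 ± 1.05 (SD, n = 6) against D. melanogaster and -4.54 ± 0.68 (SD, n = 6) against D. simulans. Fewer germ cells in the hybrid and less BigH1 RNA per germ cell cannot be told apart in whole flies.

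**Figure D1:**
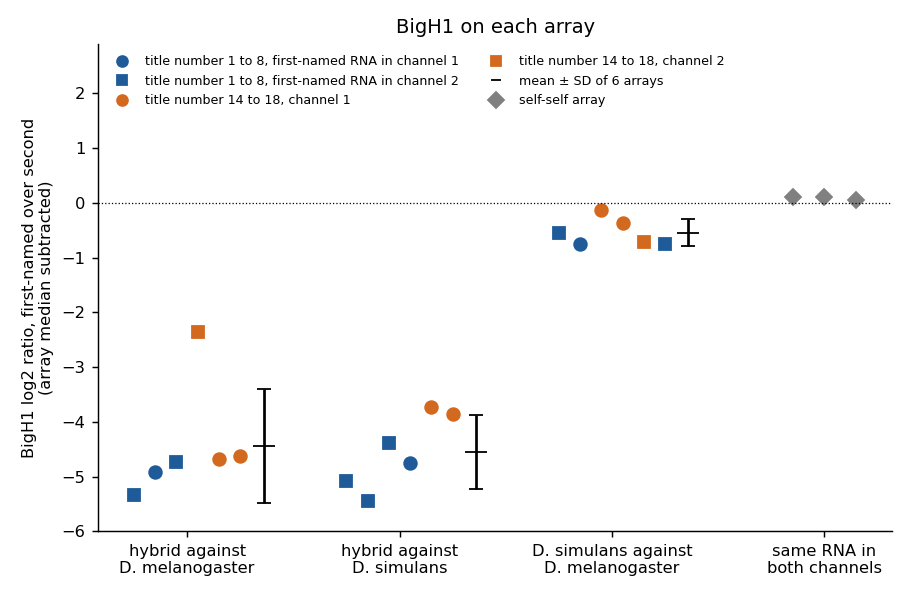
BigH1 log2 ratio on each of the 21 arrays, first-named RNA over second, in the adopted reading. Circles and squares mark the channel of the first-named RNA, colours the number in the array title, bars the mean ± SD of 6 arrays, and diamonds the arrays that held a single RNA. The 12 arrays with hybrid and parental RNA lie between -5.44 and -2.36, below the 6 arrays that compare the parents.

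The deposited ratios show the size of the difference directly. With D. melanogaster RNA in channel 1 they were 41.5, 27.3 and 5.23, and with hybrid RNA in channel 1 they were 0.0308, 0.0344 and 0.0346. In the pair with D. simulans they were 36.2, 48.4 and 20.0 in the first orientation and 0.0339, 0.0653 and 0.0590 in the other. The ratio turned with the channels on every array. By contrast, where 1 RNA filled both channels the deposited ratio was 1.04 for D. melanogaster, 1.05 for D. simulans and 1.01 for the hybrid. Centred, these are log2 values of 0.098, 0.10 and 0.047, and 55.1%, 51.7% and 73.5% of positions on those arrays lay farther from 0. Channel intensities were not used here, so whether the hybrid channel still rose above background is unknown, and the fold is that of the deposited ratio.

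A linear model over the 18 arrays with 2 different RNAs, with a term for the channel, put BigH1 in the hybrid at -4.66 ± 0.23 (SE) relative to D. melanogaster on the log2 scale, a 25.2-fold difference. The 95% interval ran from -5.13 to -4.18. BigH1 was chosen by these values, so its intervals against the parents describe the spread between arrays only and are no test. Against D. simulans it stood at -4.33 ± 0.23 (SE, 20.0-fold, interval -4.80 to -3.85), and against the mean of both parents at -4.49 ± 0.20 (SE). The hybrid thus lay far below both parents. The parents lay close, and this model did not separate them (interval of D. simulans minus D. melanogaster -0.81 to 0.15). The channel term was 0.085 ± 0.16 (SE, limma adjusted p = 0.785), with an interval from -0.25 to 0.42. With 1 array left out in turn it ran from 0.016 to 0.24 (lowest limma adjusted p = 0.0837). The highest value came without replicate 4 of the D. melanogaster pair. Of all genes and positions, 9.24% had a channel term that passed the threshold of 0.05.

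BigH1 was the lowest of 1384 named genes in the hybrid against each parent. Counted with unnamed positions, its rank from the bottom was 3 of 4753 against D. melanogaster and 8 against D. simulans, where the lowest entries stood at -5.65 and -4.84. For scale, the absolute log2 difference of the median entry was 0.67 in the first contrast and 0.61 in the second. On single arrays BigH1 was the lowest named gene on 9 of the 12 arrays with hybrid RNA. Its rank on the others was 2, 3 and 8, the last on replicate 4 of the D. melanogaster pair. Measured in SDs of all positions on the same array, BigH1 lay at -4.95 to -2.64 in the first pair and at -4.85 to -3.62 in the second.

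Next in order among named genes, by the difference from the parental mean, came CG11674 at -3.59, CG3679 at -3.42, bora at -3.39 and Incenp at -3.16. bora encodes an activator of Aurora A kinase, and Incenp encodes a subunit of the chromosomal passenger complex, both used in cell division. On single arrays CG11674 ranged from -4.09 to -2.77 in the D. melanogaster pair, above the values of BigH1 on the 5 arrays other than replicate 4. In the D. simulans pair it ranged from -5.58 to -2.71 and overlapped BigH1.

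**Figure D2:**
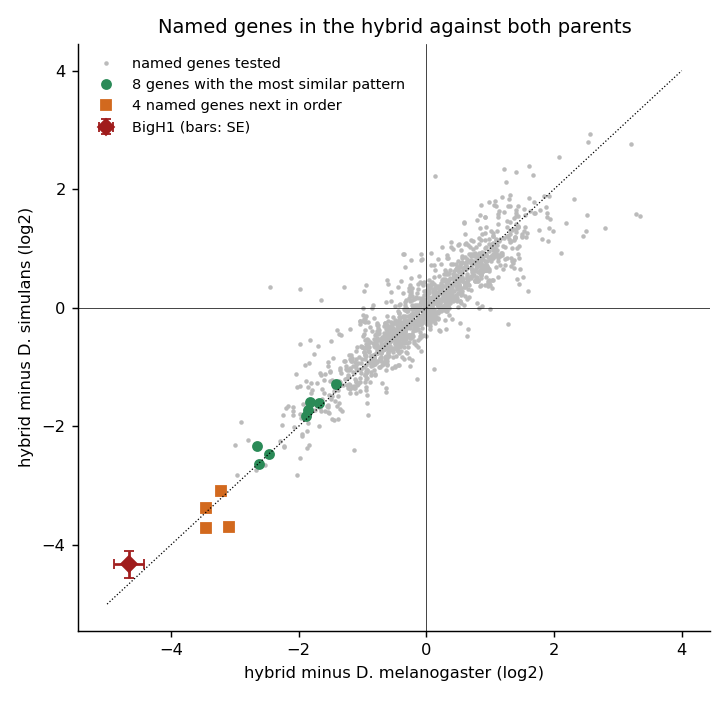
Log2 difference of the hybrid from D. simulans against its difference from D. melanogaster, for the named genes tested. The dotted line marks equal differences, and the bars on BigH1 are SE. BigH1 lies at -4.66 and -4.33, beyond CG11674, CG3679, bora and Incenp.

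The parents were compared on 6 arrays that held no hybrid RNA. These arrays are also among the 18 of the model that ranked BigH1, and the gene was chosen with earlier results known. The tests on them are thus not fully independent of that choice. BigH1 stood at log2 ratios, D. simulans over D. melanogaster, of -0.56, -0.75, -0.14, -0.36, -0.71 and -0.74 for replicates 1 to 6. D. simulans RNA was the weaker on all 6 arrays, by 1.10-fold to 1.69-fold. The fit to these arrays gave -0.55 ± 0.087 (SE, 1.46-fold, limma adjusted p = 0.00368 over 4807 entries), and an exact two-sided sign-flip permutation test gave p = 0.0312, the smallest that 6 arrays allow. Of all entries, 42.3% passed on these arrays, and 22.6% of those with 6 values lay below 0 on every array. A parental difference was thus common, and BigH1 ranked 671 of 4807 by the size of its difference. Probe mismatch with D. simulans RNA can lower its signal, and its part was not tested.

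The parental difference was smaller in the model over all 18 arrays, at -0.33 ± 0.23 (SE, interval -0.81 to 0.15), and did not pass there (limma adjusted p = 0.248), where 46.8% of all entries did. That model also draws on the route through the hybrid, which gave 0.10 in place of the -0.55 of the direct arrays. Only 12 of 3840 genes measured on all 18 arrays had a wider gap between both routes. Without replicate 4 of the hybrid and D. melanogaster pair, the route through the hybrid gave -0.32. Each array was then left out of the model in turn, which was added after the data were seen. Without replicate 4 of that pair the difference was -0.49 (limma adjusted p = 0.00262), and it did not pass in the other 17 fits. These models use the hybrid arrays on which the gene was chosen, so they are no independent test of the parents.

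Replicate 4 of that pair read BigH1 at -2.36, whereas the other 5 arrays averaged -4.86 ± 0.29 (SD, n = 5). Of 4486 genes, BigH1 was the one that departed most on this array from the mean of the other 5, by 2.49. Large differences were smaller on this array in general. Its values followed the mean of the others with a slope of 0.81, against 0.95 to 1.07 for the other 5 arrays, each set against the rest. The median of the 20 lowest genes of the other arrays was -4.12 there and -2.79 on replicate 4. The array with the same title number and the channels turned, replicate 5, gave -4.68 for BigH1. Without replicate 4 the model put BigH1 at -4.97 ± 0.13 (SE) against D. melanogaster and at -4.48 against D. simulans.

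**Figure D3:**
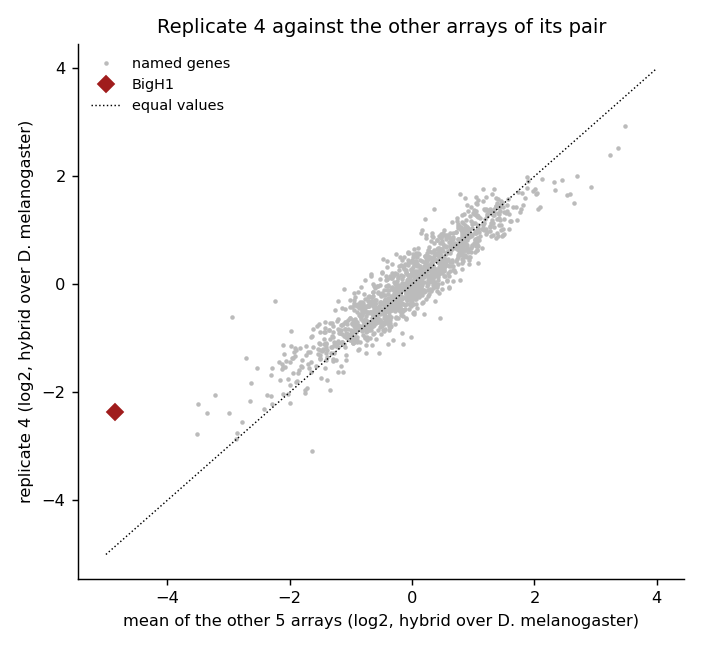
Log2 ratio, hybrid over D. melanogaster, on replicate 4 against the mean of the other 5 arrays of the pair, for named genes. The dotted line marks equal values. BigH1 stands at -2.36 on replicate 4 and at -4.86 on the others.

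The title numbers of the arrays run from 1 to 8 and from 14 to 18, and the labels do not say what they stand for. With numbers 1 to 8, BigH1 averaged -4.99 ± 0.31 (SD, n = 3) against D. melanogaster and -4.91 ± 0.45 (SD, n = 4) against D. simulans. With 14 to 18 it averaged -3.89 ± 1.32 (SD, n = 3) and -3.79 ± 0.087 (SD, n = 2). The first series lay below the second without overlap in both pairs, and the hybrid was the lower in each series. The SDs of all log2 ratios on an array averaged 1.08 and 1.04 for the 2 series in the first pair and 1.07 and 1.04 in the second. Between the parents BigH1 averaged -0.69 ± 0.11 (SD, n = 3) and -0.41 ± 0.29 (SD, n = 3), where the array SDs averaged 0.605 and 0.455. By orientation, hybrid RNA in channel 1 gave means of -4.74 ± 0.15 and -4.12 ± 0.56 (SD, n = 3 each) against D. melanogaster and D. simulans, and in channel 2 -4.14 ± 1.57 and -4.97 ± 0.53. Channel and title number overlap in part, since both arrays of hybrid against D. simulans RNA in the second series had the hybrid in channel 1.

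The pattern of BigH1 over the arrays was set against that of the 1379 other named genes with at least 15 shared arrays. The 8 most alike had Pearson r between 0.991 and 0.994 over 18 arrays, all in the order hybrid below both parents. Such an r is raised by the exchange of the channels, and 144 genes exceeded 0.95. Likeness in the size of each array's value is shown better on the 12 hybrid arrays turned one way, where r ran from 0.62 for Cbs to 0.86 for CG12109, with a median of 0.090 over all 1379. These points share pools, arrays and centring. The 12 arrays are among the 18 by which the 8 were chosen, and the median covers genes both higher and lower in the hybrid. A high r beside that median was thus partly built in and is no independent support. Without replicate 4 of the D. melanogaster pair, r over the 11 remaining hybrid arrays was 0.846 for Cbs, 0.791 for CG5026 and 0.787 for CG12109, but 0.457 for Pif1 and 0.164 for rdx, beside a median of 0.135 over all candidates. The likeness of rdx to BigH1 on the hybrid arrays thus rested largely on that array.

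The gene at the head of that list was CG12109, which encodes the large subunit of chromatin assembly factor 1, the complex that places histones on newly copied DNA. Its 6 array values ran from -3.10 to -1.55 with a median of -2.37 in the D. melanogaster pair. In the D. simulans pair they ran from -3.31 to -1.95 with a median of -2.48. The fitted differences were -2.46 ± 0.12 (SE) against each parent, with 0.0061 ± 0.12 between the parents. Pif1, a DNA helicase gene, stood at -2.66 and -2.34 against D. melanogaster and D. simulans. The ubiquitin ligase adaptor gene rdx stood at -2.61 and -2.64, and dgrn, which encodes a SUMO-targeted ubiquitin ligase, at -1.88 and -1.82. Cbs, the gene of cystathionine beta-synthase, stood at -1.82 and -1.59. The remaining genes of the 8 were CG5026, CG32409 and lili, between -1.86 and -1.29.

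A low hybrid level and close parents follow from choosing these 8 by their likeness to BigH1, so their differences are a description. Any difference was called for 83.8% of all genes and positions against D. melanogaster and for 82.2% against D. simulans, and a level below both parents for 36.2%. Each of the 8 lay above BigH1 on all 12 arrays. BigH1 was chosen as the lowest named gene and ranked no higher than 8 from the bottom on any of them. Most named genes thus lie above it, and this says nothing particular about the 8. The 8 were also chosen over arrays that include replicate 4 of the D. melanogaster pair, on which the lowest genes read higher in general. A high value on it is thus partly built in and is no independent support. Replicate 4 was the highest array of the pair for 7 of the 8 as well, from -1.55 for CG12109 to -0.61 for Pif1. The exception was Cbs, at -1.51 there and -1.38 on replicate 6.

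**Figure D4:**
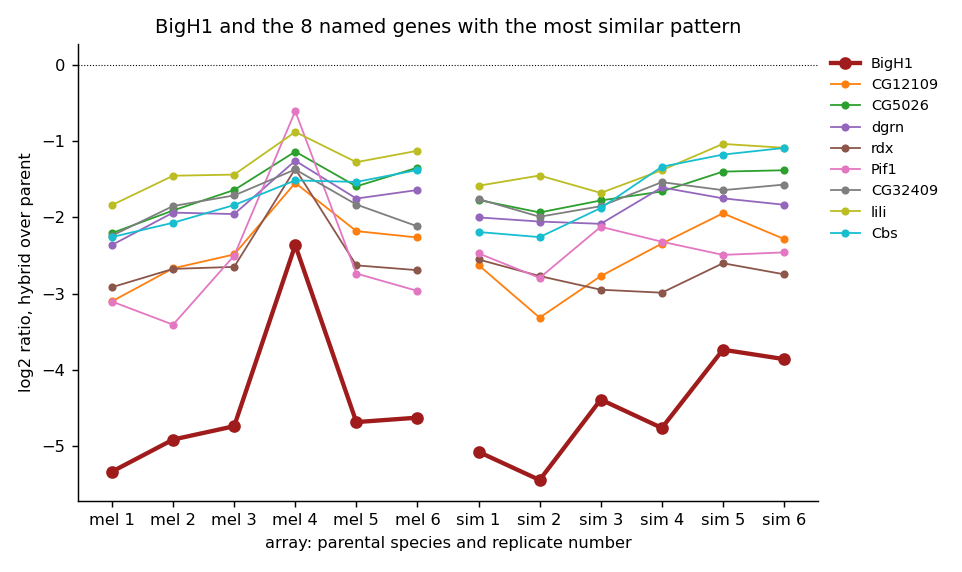
Log2 ratio, hybrid over parent, of BigH1 and the 8 named genes with the most similar pattern on the 12 arrays with hybrid RNA. Lines only join the values of a gene within a pair, since replicates have no order. BigH1, chosen as the lowest named gene, lies below the 8 others on all 12 arrays. Replicate 4 of the D. melanogaster pair is its highest value.

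Histone genes could not be set beside BigH1, because 0 of 9 other linker and core histones on the list carried a symbol on the platform. Among 31 histone chaperones and assembly factors, only CG12109 was tested. The list of heterochromatin proteins and chromatin modifiers had 7 tested members of 41. All 7 fell in the hybrid, with a median of -0.94 against D. melanogaster and of -0.81 against D. simulans. Over all genes and positions the medians were 0.02 in each contrast, and 41.8% and 40.8% were called lower.

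Kdm4A, a histone lysine demethylase gene, fell most in this list, to -1.87 ± 0.11 and -2.08 ± 0.11 (SE) relative to D. melanogaster and D. simulans. On single arrays it lay between -2.55 and -0.87 in the first pair and between -2.35 and -1.97 in the second, where it did not overlap BigH1. chm, which encodes a MYST-family histone acetyltransferase, stood at -1.37 and -1.24. Phf7, whose product reads histone marks in male germ cells, stood at -1.70 and -0.65, and it also differed between the parents at -1.05 (limma adjusted p = 5.01e-06). Su(z)12 of the Polycomb repressive complex 2 stood at -0.94 and -0.81, the methyltransferase gene Set2 at -0.76 and -0.29, the corepressor gene CtBP at -0.61 and -0.96, and wde, whose product is a partner of the methyltransferase Eggless, at -0.80 and -0.77. With arrays scaled to a common spread, Phf7 and Set2 no longer passed against D. simulans, at -0.095 and -0.084. On the 6 unscaled arrays of that pair they ran from -1.38 to 0.33 and from -0.85 to 0.31. Scaling enlarges parental values relative to hybrid ones, since array SDs averaged 0.53 between the parents and 1.06 in each hybrid pair.

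The germline and oogenesis list held 8 tested genes of 61. Against D. melanogaster 6 fell and 0 rose, with a median of -1.28, where 41.8% of all entries were called lower and 42% higher. Against D. simulans 5 fell and 1 rose, with a median of -0.51, where 40.8% were called lower and 41.5% higher. The meiotic checkpoint gene pch2 stood lowest, at -2.99 and -2.31, with array values from -3.50 to -1.97 and from -3.22 to -1.41. The piRNA nuclease gene zuc stood at -1.74 and -1.73, and c(2)M, a component of the synaptonemal complex, at -1.58 and -1.11. mei-P26, which acts in germ cell differentiation, stood at -0.97 and -0.54.

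Other germline genes lay nearer to 0 against at least 1 parent. ovo, a transcription factor gene of the female germline, stood at -0.01 (limma adjusted p = 0.927) and -0.04 (adjusted p = 0.673). c(3)G, which encodes the transverse filament of the synaptonemal complex, stood at -1.65 against D. melanogaster, past the threshold, and at 0.14 against D. simulans (adjusted p = 0.493). With arrays scaled to a common spread c(3)G rose against D. simulans, at 1.06 (adjusted p = 0.0266), and mei-P26 no longer passed there (adjusted p = 0.155). On the 5 unscaled arrays of that pair with a value, c(3)G ran from -0.61 to 0.17. A rise of that size was thus not seen on them. Between the parents c(3)G ran from -2.46 to -1.49, D. simulans over D. melanogaster, and scaling enlarges such parental values relative to hybrid ones. The actin nucleator gene spir stood at -0.21 (adjusted p = 0.0545) and -0.47. It passed against D. melanogaster with deposited medians (-0.31, adjusted p = 0.00748), with title numbers 1 to 8 (-0.40, adjusted p = 0.0319) and with 14 to 18 (-0.18, adjusted p = 0.00311), and in 2 of the 18 fits that left out 1 array. The importin gene Fs(2)Ket stood at -0.36 and 0.25, and its rise against D. simulans (limma adjusted p = 0.0438) was lost in 13 of the 18 fits that left out 1 array, where adjusted p ran from 0.00311 to 0.141. On the platform but without enough values were pum, aub, capu and shu, and from the list on the transition from maternal to zygotic control zld and wisp. Of that list only rdx was tested.

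**Figure D5:**
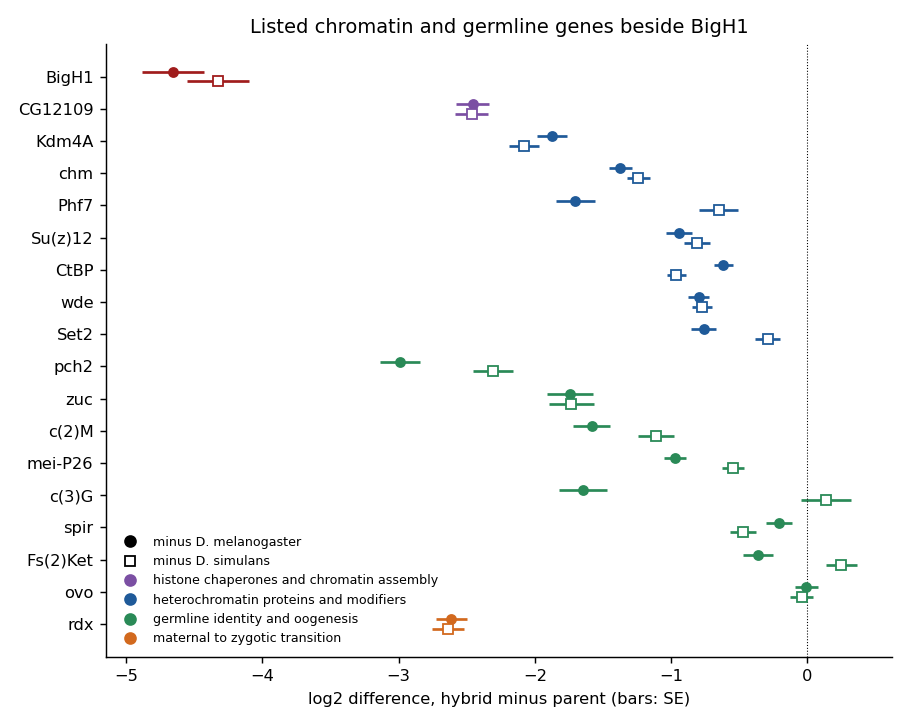
Fitted log2 difference of the hybrid from D. melanogaster (filled circles) and from D. simulans (open squares) with SE, for BigH1 and the tested members of the chromatin, germline and early embryo lists. BigH1 lies lowest at -4.66 and -4.33, pch2 is next at -2.99 against D. melanogaster, and ovo lies near 0.

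Genes of cell division and DNA replication were lower as well, with 9 of 9 tested members of 49 fallen against each parent and medians of -2.80 and -2.23. Of all entries, 41.8% and 40.8% were called lower. The lowest were bora, Incenp and the spindle orientation gene mud, at -3.39, -3.16 and -2.89 against the parental mean. Of markers of somatic tissue, 12 of 14 rose against each parent, where 42% and 41.5% of all entries were called higher. Their medians were 1.18 and 1.08, led by the fat body genes apolpp and FASN1 at 2.75 and 2.04, and by regucalcin at 1.96 against the parental mean. The actin regulator gene flr fell, at -1.01 and -0.66, and the synaptic vesicle gene nSyb stood at -0.16 (adjusted p = 0.206) and -0.27 (adjusted p = 0.0379). With arrays scaled to a common spread, Strn-Mlck and Glyp no longer passed against D. simulans (adjusted p = 0.986 and 0.375). On the 6 unscaled arrays of that pair they ran from 0.077 to 1.00 and from 0.045 to 0.91. The testis markers janB and ocn stood at 0.53 and 0.85 against D. melanogaster (adjusted p = 0.0223 and 0.00204) and at 0.12 and 0.56 against D. simulans (adjusted p = 0.594 and 0.0319). With arrays scaled to a common spread, the calls of janB against D. melanogaster and of ocn against D. simulans were lost (adjusted p = 0.052 and 0.199), as they were in 2 and 4 of the 18 fits that left out 1 array. For eggshell and yolk, 0 of 12 markers carried a symbol, and 3 of 10 female germline markers were tested. How much a different share of ovary or somatic tissue contributes to the level of BigH1 was not tested.

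The neighbourhood of BigH1 on chromosome arm 3R was thinly covered, with 2 tested genes among the 10 on each side. Its next gene, Meltrin, which encodes a metalloprotease of the ADAM family, stood at -0.01 against D. melanogaster (limma adjusted p = 0.937) and -0.27 against D. simulans (adjusted p = 0.0016). CG7530, 3 genes away on the same side, stood at 0.39 (adjusted p = 0.000138) and 0.30 (adjusted p = 0.00145). With title numbers 1 to 8 alone CG7530 passed against neither parent (adjusted p = 0.108 and 0.0824).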

How the data were processed

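RNA of whole females was hybridised to 2-channel arrays. The values the authors deposited are linear ratios of both channels. How they were scanned, background-corrected, normalized and filtered, and which channel is the numerator, is not stated in labels or header. Intensities were not used here. The precision given is that between arrays, and 1 RNA pool per strain limits what it says about the strains. Array medians of the deposited ratio ran from 0.852 to 1.11. Log2 ratios were centred on each array's median, and positions of 1 gene were averaged. Of the positions, 1943 had 1 symbol in the platform annotation, 67 had several, 4091 had none, and 1145 held no value. Symbols and chromosome arms came from the Release 6 gene table. Coordinates and sequences were not used here.

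Entries with at least 4 of 6 values per pair (4753, of which 1384 named) entered limma 3.58.1 (R 4.3.3) with strain and channel terms, tested two-sided at Benjamini-Hochberg adjusted p of 0.05. The parental difference was also fitted on its 6 arrays alone. The fits were checked on simulated data. Replicate numbers follow deposition order. Alternatives were other centring, scaling, filters, title numbers, weights and arrays left out.

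BigH1, the lists and the tests were chosen with earlier results of these data known. Named genes were BigH1, the 8 with the highest r to it, the 4 next in order against the parental mean, all tested members of the chromatin, germline and maternal lists, and the 3 largest of other lists. CG7530 and Meltrin, as neighbours, and flr, nSyb, Strn-Mlck and Glyp, for their direction or loss of a call, were named after their values were seen.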

Additional observations from a re-analysis of the deposited data

Results flagged for a closer look

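A Dixon test of the highest and lowest array in each group of 6 was run on BigH1 and the 8 most similar genes, 27 groups in all. Chance marks about 1 in 20 independent groups as apart, and 4 were. BigH1 was chosen by its hybrid values and the 8 genes for following it over the same arrays, so these groups are not independent and the number cannot be set against chance. In the pair of hybrid and D. melanogaster RNA, replicate 4 lay far above the other arrays for BigH1, at -2.36 with the nearest other array at -4.62, for rdx, at -1.36 with the nearest at -2.63, and for Pif1, at -0.61 with the nearest at -2.50. Between the parents, 1 array read Pif1 at -1.16 with the nearest other at -0.38.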

How the results depend on the processing

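BigH1 stayed lower in the hybrid than in both parents under every alternative run. With arrays scaled to a common spread it stood at -3.57, -2.98 and -3.28 against D. melanogaster, D. simulans and the parental mean, and with title numbers 14 to 18 alone at -3.41 against D. simulans and -3.56 against the mean. Leaving out each array gave -4.97 to -4.58, -4.48 to -4.19 and -4.73 to -4.39. The parental difference on its own arrays ran from -0.62 to -0.46 with an array left out and passed each time, but stood at -0.33 (adjusted p = 0.248) with 18 arrays in 1 model. The channel term was -0.44 (adjusted p = 0.163) with title numbers 14 to 18. Genes called at 1.5-fold or more numbered 2643, 2464 and 530 against D. melanogaster, against D. simulans and between the parents, and 1388 between the parents with title numbers 1 to 8. With values required on all arrays, fewer genes were tested, and 4 chromatin modifiers and 3 germline genes were called lower against each parent. The number of list members tested under this filter is not given here, so these counts say nothing about the lists. In the main fit 41.8% and 40.8% of all entries were called lower against D. melanogaster and D. simulans.

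Values that crossed 0 were mostly near it. With deposited medians janB stood at -0.0059 against D. simulans. With scaled arrays ovo stood at 0.0084 and Meltrin at 0.063 against D. melanogaster, and janB at -0.027 and Strn-Mlck at -0.0036 against D. simulans. With title numbers 14 to 18, ovo stood at 0.19 (adjusted p = 0.00098) and 0.083 against D. melanogaster and D. simulans, janB at -0.0027 and -0.067, c(3)G at -0.087 against D. simulans, and nSyb at 0.15 and Meltrin at 0.084 against D. melanogaster. With an array left out, the range against D. melanogaster was -0.042 to 0.058 for ovo and -0.053 to 0.023 for Meltrin, and against D. simulans -0.074 to 0.015 for ovo. With deposited medians the median of all entries moved from 0.02 in each contrast to -0.083 and -0.10, and Fs(2)Ket no longer passed against D. simulans (adjusted p = 0.258). The cause of these shifts was not tested. Replicate numbers follow deposition order and pair nothing. The titles of the 18 arrays with 2 different RNAs hold 10 numbers. Of these numbers, 8 are shared by 2 arrays, and 1 of the 8 spans 2 groups. A fit with title number as a random block, added after the data were seen (consensus correlation 0.159), put BigH1 at -4.63 and -4.31 and called 4008, 3894 and 2221 entries against D. melanogaster, against D. simulans and between the parents. Under this block Fs(2)Ket no longer passed against D. simulans (adjusted p = 0.0944), and spir passed against D. melanogaster (adjusted p = 0.0363).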
